A study of Mus musculus with 28 samples.

Results

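Cells sorted from the subependymal zone (SEZ) of adult mice by GLAST and EGF labels were compared with cells sorted by a Ki67 reporter. Members were the wells of the 4 GLAST/EGF libraries and the 4 Ki67-RFP libraries that held at least 1000 estimated transcripts over gene rows without spike-in RNA. They came to 531 of the 1789 such cells in the series and to 8 of its 28 libraries. GLAST/EGF gave 216 cells, with 55, 47, 52 and 62 in libraries 1 to 4. Ki67-RFP gave 315 cells, with 76, 80, 76 and 83. The choice used no measured transcript level of a gene, and genes on the X and Y chromosomes were left out of every test.

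The study joined cell sorting to single-cell RNA sequencing (SORT-seq) to build an atlas of SEZ neural stem cells and their progeny. GLAST/EGF cells were stained with an antibody to GLAST, the glutamate transporter encoded by Slc1a3, and/or bound fluorescent EGF, the ligand of the receptor encoded by Egfr. Which of these 2 labels a given cell carried is not given in the labels. Ki67-RFP cells came from Ki67-tagRFP ki/ki mice, in which both alleles of Mki67 carry the red reporter, and no genetic reporter is named for the GLAST/EGF mice. The sorts used the products or reporters of Slc1a3, Egfr and Mki67, so tests of these genes and of division are not independent of the sort. Mice of both sorts were of strain Bl/6, aged 8 to 10 weeks, and no tamoxifen is named for them. The number of mice behind a library is not given in the labels, so p-values measure the spread between libraries, which may be technical.

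Neural stem cells of the SEZ are astroglia-like cells that are mostly quiescent. Once activated, they take up Egfr, divide as transit-amplifying progenitors, and give rise to neuroblasts that carry Dlx transcription factors and migrate to the olfactory bulb, some of them still dividing. GLAST is found along the astroglial side of this lineage, EGF binding on activated stem cells and progenitors, and Ki67 protein in cycling cells of any stage.

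Libraries held 96 wells each, with the same 96 well barcodes in every library. Passing cells summed to 360339 to 475271 transcripts per GLAST/EGF library and 496202 to 572793 per Ki67-RFP library, and spike-in RNA made up 7.78% to 10.4% and 6.57% to 7.98% of all transcripts. Y-linked genes (4 together) stood at 290 to 361 CPM (transcripts scaled to 1000000 per library) in the GLAST/EGF libraries and at 0 in the Ki67-RFP libraries, while Xist stood at 0 to 2.71 and at 435 to 504 CPM. Sort and sex of the mice therefore cannot be told apart. GLAST/EGF libraries 3 and 4 came from another flow cell than the other 6 libraries, by the names of the tables. Values from the shared flow cell alone (GLAST/EGF libraries 1 and 2 against all Ki67-RFP libraries) are given where they changed the call of a named gene. The other flow cell held GLAST/EGF libraries alone and gave no comparison.

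Slc1a3 (chr15:8634124-8710764, minus strand, mm10) was higher in GLAST/EGF. It stood at 1764, 1264, 1703 and 1881 CPM in GLAST/EGF libraries 1 to 4 and at 183, 173, 182 and 205 CPM in Ki67-RFP libraries 1 to 4. The difference was 3.14 ± 0.13 on the log2 scale (SE, n = 4 libraries per sort), with an adjusted p of 1.14e-15 from limma. Every GLAST/EGF library lay far above every Ki67-RFP library.

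Egfr (chr11:16752203-16918158, plus strand) was also higher in GLAST/EGF, at 471, 381, 335 and 359 CPM against 81.7, 104, 118 and 114 CPM. Its log2 fold was 1.87 ± 0.16 (adjusted p = 4.92e-10), and it was 2.02 on the shared flow cell. Egfr was thus well above 0 in all 4 Ki67-RFP libraries.

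Mki67 (chr7:135689784-135716361, minus strand) did not pass. It stood at 702, 544, 471 and 443 CPM in GLAST/EGF and at 623, 699, 571 and 757 CPM in Ki67-RFP, so that the libraries overlapped. Its log2 fold was -0.32 ± 0.13 (adjusted p = 0.0510, 95% interval -0.57 to -0.07). Without GLAST/EGF library 1 it passed (-0.45, adjusted p = 0.00576), as it did without Ki67-RFP library 3 (-0.41, adjusted p = 0.0237), and with every cell weighted equally the fold was -0.92 (adjusted p = 3.97e-06). The effect of the reporter on Mki67 transcripts in the Ki67-RFP mice was not tested.

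**Figure D1:**
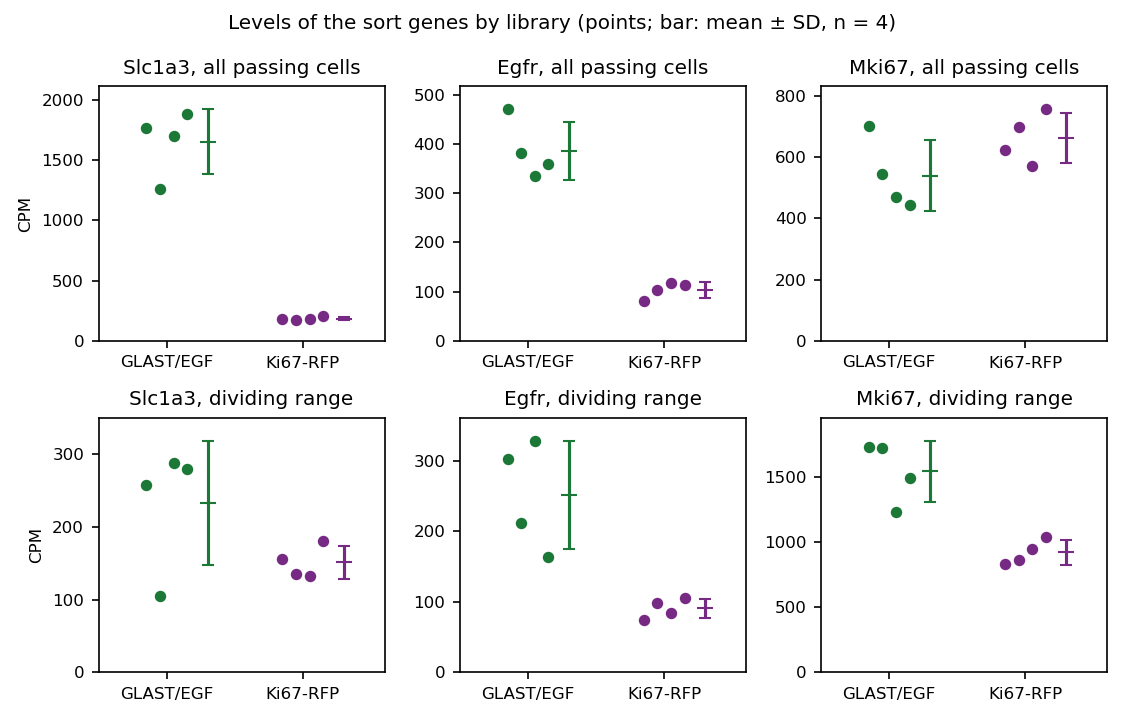
CPM per library of Slc1a3, Egfr and Mki67 in the sums over all passing cells (top) and over cells in the dividing range (bottom); points are the 4 libraries of each sort and the bar is the mean with its SD. In the top row Slc1a3 ranged from 1264 to 1881 CPM in GLAST/EGF against 173 to 205 CPM in Ki67-RFP. For Mki67 the libraries of the 2 sorts overlap in that row alone.

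Sums over cells do not tell fewer cells of a kind from less RNA per cell, so cells with a transcript were counted as well. With each cell thinned to 1000 transcripts, Egfr was found in 22.9% ± 5.94 of GLAST/EGF cells and 6.96% ± 1.45 of Ki67-RFP cells (SD, n = 4 libraries). Unthinned shares were 57.2% ± 3.90 and 28.6% ± 5.57. Mki67 went the other way, in 15.3% ± 2.95 of thinned GLAST/EGF cells and 38.3% ± 7.76 of Ki67-RFP cells (33.7% and 70.1% unthinned). Each of these differences had the smallest p that an exact 2-sided permutation test of 4 against 4 libraries can give, 0.0286 (adjusted p = 0.0413 over 13 genes and pairs). Without 1 of the libraries the adjusted p of these thinned shares ran up to 0.0929 for Egfr and 0.0825 for Mki67.

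Top2a (topoisomerase of dividing cells), Dlx2, Cd24a and Stmn2 followed Mki67, and Slc1a3 and Aqp4 followed Egfr, at the same p.

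The share of cells with both Egfr and Mki67 did not differ detectably between the sorts. It was 24.5% ± 4.92 in GLAST/EGF and 22.3% ± 6.07 in Ki67-RFP before thinning, and 2.78% ± 1.80 and 1.90% ± 1.64 after it (exact permutation p = 0.543 both times). Among cells with Mki67, 72.4% ± 3.87 also had Egfr in GLAST/EGF (53 of 73 cells) and 31.7% ± 8.16 in Ki67-RFP (70 of 221 cells), unthinned. Among cells with Egfr, 44.5% ± 8.81 also had Dlx2 in GLAST/EGF and 97.0% ± 3.64 in Ki67-RFP, beside 38.4% ± 5.88 and 94.9% ± 2.91 of all cells. After thinning Egfr was in 17.6% ± 8.62 and 4.45% ± 3.66 of the cells with Mki67, and Dlx2 in 17.8% ± 16.7 and 46.5% ± 31.8 of the cells with Egfr, the latter with overlapping libraries. Shares among such cells carry no test, and the share of Egfr and of Dlx2 over all cells differed in the same direction.

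**Figure D2:**
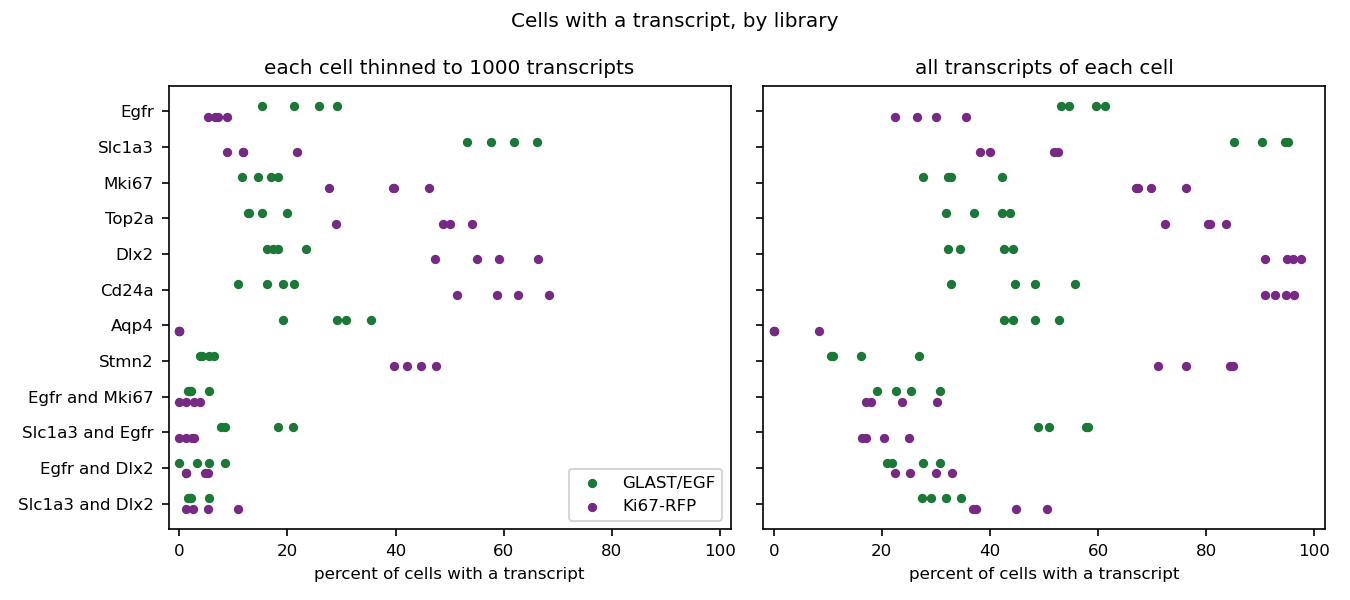
Percent of cells with at least 1 transcript of a gene or of both genes of a pair, with each cell thinned to 1000 transcripts (left) and with all its transcripts (right); each point is 1 library. Egfr and Slc1a3 lie to the right in GLAST/EGF and Mki67, Top2a, Dlx2, Cd24a and Stmn2 in Ki67-RFP, while the points of Egfr with Mki67 overlap.

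Over all passing cells, 7518 genes were tested. Of these, 1363 (18.1%) were higher in GLAST/EGF and 1380 (18.4%) were higher in Ki67-RFP at an adjusted p below 0.05, 36.5% in either direction, and the median log2 fold was -0.03. The 8 libraries separated without overlap in 33.5% of genes, and passed as well in 29.8%. On the shared flow cell 1117 genes were higher in GLAST/EGF and 795 in Ki67-RFP.

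All 28 tested members of the astroglial and quiescent stem cell list were higher in GLAST/EGF, with a median log2 fold of 3.54. Aqp4, the astrocyte water channel, stood at 321, 183, 266 and 436 CPM in GLAST/EGF and at 0, 0, 0 and 14.7 CPM in Ki67-RFP (log2 fold 7.20 ± 0.86). It was found in 46.97% ± 4.55 of GLAST/EGF cells and in 7 of 315 Ki67-RFP cells, all 7 in Ki67-RFP library 4.

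The most abundant members were Apoe, the lipoprotein of astrocytes (3900 ± 395 against 465 ± 194 CPM), Slc1a2, the other astroglial glutamate transporter (3573 ± 259 against 348 ± 62.2 CPM), and Cst3, a protease inhibitor (2912 ± 115 against 947 ± 136 CPM). Clu, a secreted chaperone, stood at 1315 ± 152 against 24.5 ± 22.3 CPM, and Aldoc, the astroglial aldolase, at 1173 ± 136 against 31.8 ± 27.7 CPM. Gjb6, a gap junction gene, had 1 transcript in all Ki67-RFP cells, which gives a ratio of 7.83 on the log2 scale with a counting interval of 5.33 to 13.1. Slc39a12, a zinc transporter, had 2, with a ratio of 6.97 and an interval of 5.10 to 10.0.

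The remaining genes with the largest differences in this direction were Cxcl14, a chemokine, Pla2g7, a secreted phospholipase, Slc4a4, a bicarbonate cotransporter, Crym, which binds thyroid hormone, Htra1, a secreted protease, Grin2c, a glutamate receptor subunit, and Hspa1a, a heat shock protein. Their log2 folds ran from 5.54 (Hspa1a) to 6.32 (Cxcl14), and their mean levels in Ki67-RFP from 1.88 (Grin2c) to 7.27 CPM (Htra1).

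Most lipid genes were higher in GLAST/EGF. Of 25 tested, 19 were higher in GLAST/EGF and 0 in Ki67-RFP (median log2 fold 0.80). They included Acsl3, which activates fatty acids (666 ± 90.8 against 104 ± 4.11 CPM), Cpt1a, which admits them to mitochondria (77.2 ± 23.95 against 14.8 ± 7.49 CPM), Scd2 (1342 ± 186 against 772 ± 29.4 CPM) and Dbi (810 ± 75.4 against 482 ± 48.7 CPM). Fabp5, a fatty acid carrier, did not pass, at 465 ± 35.1 against 496 ± 20.02 CPM. Of 13 glycolytic genes 7 were higher in GLAST/EGF, among them Ldhb (log2 fold 0.68 ± 0.12), and 1 in Ki67-RFP, Gapdh (-0.26 ± 0.08), which did not pass on the shared flow cell (adjusted p = 0.0793). Pkm did not pass (0.10 ± 0.10). Of 19 cholesterol synthesis genes 4 were higher in GLAST/EGF, among them Msmo1 (1.66 ± 0.15), a share near the 18.1% of all genes. The count was 7 without GLAST/EGF library 2, 9 with cells weighted equally and 2 on the shared flow cell, and Hmgcs1 (0.21 ± 0.13), Fdft1 (-0.06 ± 0.14) and Idi1 (0.30 ± 0.17) did not pass.

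Neuroblast genes were higher in Ki67-RFP in 30 of 31 tested members, with a median log2 fold of -1.63. Stmn2, a regulator of neuronal microtubules, stood at 53.3, 70.3, 120 and 105 CPM in GLAST/EGF and at 714, 1069, 528 and 892 CPM in Ki67-RFP (-3.16 ± 0.24). Sp8, a transcription factor of olfactory interneurons, stood at 8.38, 0, 6.68 and 28.1 CPM against 119, 155, 104 and 136 CPM (-3.93 ± 0.62). GLAST/EGF lay below Ki67-RFP in every library for both.

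Abundant members differed less. Stmn1 stood at 1914 ± 210 against 5085 ± 425 CPM, Sox11 at 1451 ± 228 against 3223 ± 223 CPM, Dlx1 at 637 ± 129 against 1175 ± 131 CPM and Dpysl3 at 547 ± 171 against 1068 ± 72.5 CPM. Dlx5, Sp9, Gad1, which makes GABA, Celf4, Nrep and the noncoding RNAs Dlx1as and Dlx6os1 had log2 folds from -3.13 (Dlx1as) to -2.20 (Nrep). Tuba1c (-3.12 ± 0.46), a tubulin, Gng3 (-2.76 ± 0.32), a G protein subunit, and H1fx (-2.22 ± 0.24), a linker histone, stood among the largest differences from outside the list. Dlx1as and Dlx6os1 lie antisense to Dlx genes, and since strand-specific counting is not stated, their reads are uncertain.

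Dclk1, a microtubule-binding kinase, was the exception in the neuroblast list. It was higher in GLAST/EGF, at 738 ± 47.4 against 415 ± 47.1 CPM (log2 fold 0.84 ± 0.11, adjusted p = 1.18e-06).

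The list of activated stem cell and progenitor genes split. Of 21 tested members, 5 were higher in GLAST/EGF, 6 were higher in Ki67-RFP and 10 did not pass (median log2 fold 0.14). Besides Egfr, GLAST/EGF was higher in members such as Olig2 (148 ± 83.2 against 42.1 ± 21.2 CPM) and Olig1 (81.1 ± 36.3 against 14.5 ± 16.2 CPM), transcription factors of progenitors and the oligodendrocyte lineage. Rgcc, a regulator of the cell cycle, stood at 67.1, 54.8, 40.2 and 43.1 CPM in GLAST/EGF and at 0 in all Ki67-RFP libraries. Against a floor of 3 transcripts over the Ki67-RFP libraries it was at least 5.09 higher on the log2 scale.

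Ki67-RFP was higher in Ccnd2, a D cyclin (3187 ± 274 against 5090 ± 172 CPM), its partner kinase gene Cdk4 (673 ± 66.2 against 1148 ± 59.6 CPM), the filament gene Vim (233 ± 68.2 against 562 ± 92.7 CPM), and the transcription factor genes Insm1 (204 ± 36.7 against 435 ± 27.7 CPM), Pax6 (166 ± 30.05 against 279 ± 28.7 CPM) and Sox2. Sox2 was the smallest of these differences (547 ± 43.5 against 663 ± 26.7 CPM, adjusted p = 0.0364) and did not pass without GLAST/EGF library 2 (adjusted p = 0.133), nor without GLAST/EGF library 3 or Ki67-RFP library 1, 2 or 4, nor on the shared flow cell (adjusted p = 0.0754). Miat, a noncoding RNA, did not pass (0.35 ± 0.15, adjusted p = 0.0790), but passed without GLAST/EGF library 4 (0.49, adjusted p = 0.0105). By the median cell, the list took 0.45% ± 0.12 of transcripts in GLAST/EGF and 0.91% ± 0.04 in Ki67-RFP (exact permutation p = 0.0286, adjusted p = 0.0403).

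Most genes of G2 and mitosis were higher in Ki67-RFP. Of 56 tested G2 and M genes, 49 were higher in Ki67-RFP and 0 in GLAST/EGF (median log2 fold -1.25). Ccnb1, the mitotic cyclin, stood at 107, 81.7, 76.7 and 19.4 CPM in GLAST/EGF and at 232, 267, 244 and 237 CPM in Ki67-RFP (-2.07 ± 0.28). Ube2c, which feeds mitotic proteins to the proteasome, stood at 168, 146, 123 and 61.1 CPM against 392, 528, 421 and 384 CPM (-1.91 ± 0.20). GLAST/EGF library 4 was the lowest for both, and without it the fold of Ccnb1 was -1.47. Top2a (-0.93 ± 0.18) and Cenpf (-0.67 ± 0.17) passed, Cenpf not on the shared flow cell (adjusted p = 0.0547), and Smc4 did not (-0.34 ± 0.14, adjusted p = 0.0574) except without GLAST/EGF library 2 (-0.41) or Ki67-RFP library 3 (-0.49).

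Of 47 tested S phase genes, 25 were higher in Ki67-RFP, 1 was higher in GLAST/EGF and 21 did not pass (median log2 fold -0.42). On the shared flow cell 10 were higher in Ki67-RFP, with Pcna (adjusted p = 0.0637) and Nasp (adjusted p = 0.0587) not among them. Pcna, the DNA polymerase clamp, stood at 1374 ± 112 against 1713 ± 107 CPM (-0.32 ± 0.09), Rrm2, which supplies deoxynucleotides, at 300 ± 69.6 against 592 ± 21.4 CPM (-1.03 ± 0.13), 2810417H13Rik at 553 ± 107 against 837 ± 82.3 CPM and Nasp, a histone chaperone, at 439 ± 44.6 against 571 ± 22.2 CPM. Hells, a chromatin remodeller, was higher in GLAST/EGF (156 ± 24.8 against 95.97 ± 19.9 CPM, adjusted p = 0.00361), though not with cells weighted equally (0.40, adjusted p = 0.113).

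Promoters of mitotic genes are known for a pair of short elements, the CHR, read in late cell cycle, and the CCAAT box. To show how these elements lie, the 150 bases before the start of 3 G2 and M genes, chosen because they hold both, and of Mki67 are given 5′ to 3′ on the gene's strand, from RefSeq on GRCm38.p6. Capitals mark TTTGAA or TTCAAA (the CHR letters on either strand) and CCAAT or ATTGG. Ube2c lies at chr2:164769779-164769928 (plus strand), Arhgap11a at chr2:113848662-113848811 (minus), Cks1b at chr3:89418292-89418441 (minus) and Mki67 at chr7:135716380-135716529 (minus).
Ube2c: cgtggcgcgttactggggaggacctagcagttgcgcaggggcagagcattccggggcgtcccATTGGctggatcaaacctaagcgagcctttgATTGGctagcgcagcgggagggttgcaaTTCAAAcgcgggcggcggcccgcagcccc
Arhgap11a: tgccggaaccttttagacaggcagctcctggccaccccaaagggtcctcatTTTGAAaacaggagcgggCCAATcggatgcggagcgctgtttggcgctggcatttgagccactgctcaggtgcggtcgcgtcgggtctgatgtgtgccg
Cks1b: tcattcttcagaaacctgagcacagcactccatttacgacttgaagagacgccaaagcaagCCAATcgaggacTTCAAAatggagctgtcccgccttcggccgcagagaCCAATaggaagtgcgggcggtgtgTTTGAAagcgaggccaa
Mki67: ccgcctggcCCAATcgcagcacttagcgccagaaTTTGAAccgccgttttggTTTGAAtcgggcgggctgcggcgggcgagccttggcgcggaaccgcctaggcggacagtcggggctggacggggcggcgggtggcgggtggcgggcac

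In the 250 bases before the start, TTTGAA stood on either strand in 20 of the 51 G2 and M genes with a promoter (39.2%), in 6 of 40 S phase genes (15%) and in 18.3% of all 27025 promoters. CCAAT stood in 38 of the 51 (74.5%), in 25 of 40 S phase genes (62.5%) and in 37.5% of all promoters. Both stood in 18 of the 51 (35.3%), in 5 of the 40 (12.5%) and in 7.34% of all. Within the G2 and M list the CHR did not sort the genes by their difference. The median log2 fold was -1.25 over the 19 tested genes with it and -1.29 over the 30 without it. Ube2c, Arhgap11a (-1.48 ± 0.22) and Cks1b (-1.45 ± 0.19) were lower in GLAST/EGF, and Mki67, which holds the CHR letters 2 times, did not pass. A match of letters is a description and not a site of binding.

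Signalling genes differed in part. The counts of the 4 signalling lists stand beside 18.1% of all genes higher in GLAST/EGF and 18.4% higher in Ki67-RFP. In the EGF receptor and ERK list 6 of 21 tested members were higher in GLAST/EGF and 3 in Ki67-RFP (median log2 fold 0.10), a share near the 36.5% of all genes that passed. Besides Egfr they included Spred1, which restrains Ras signalling (168 ± 28.05 against 59.7 ± 5.64 CPM), Lrig1 (56.5 ± 26.8 against 3.86 ± 3.72 CPM) and Cbl (34.4 ± 5.49 against 12.8 ± 1.52 CPM), which lead to loss of the receptor, and the adaptor gene Gab1 (65.7 ± 11.4 against 25.2 ± 5.54 CPM). Etv5, a transcription factor that follows ERK activity, was higher in GLAST/EGF (83.8 ± 22.9 against 40.8 ± 7.15 CPM), and its relative Etv1 was higher in Ki67-RFP (127 ± 39.8 against 325 ± 18.3 CPM). Etv1 also stands in the neuroblast list. The Ras genes Nras (-0.46 ± 0.15) and Hras (-0.59 ± 0.22) were higher in Ki67-RFP, with overlapping libraries. The call of Nras was lost without GLAST/EGF library 4 (adjusted p = 0.0692) or Ki67-RFP library 1 (adjusted p = 0.0695), and that of Hras without GLAST/EGF library 2 or 3 or Ki67-RFP library 2 or 4 (at most 0.131) and on the shared flow cell (adjusted p = 0.180).

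In the Notch list, whose receptors keep stem cells undivided, 9 of 18 were higher in GLAST/EGF and 0 in Ki67-RFP (median log2 fold 0.50). They included the receptors Notch1 (0.41 ± 0.14) and Notch2 (1.40 ± 0.30), the ligand Jag1 (0.87 ± 0.32), the modifier Lfng (2.40 ± 0.32) and the target genes Hes1 (2.44 ± 0.51) and Hes5. Hes5 stood at 409, 218, 236 and 298 CPM in GLAST/EGF and at 56.8, 86.3, 90.5 and 167 CPM in Ki67-RFP. Rbpj, the nuclear partner of Notch, did not pass (-0.19 ± 0.16). Neither Notch1 (adjusted p = 0.287) nor Jag1 (adjusted p = 0.408) passed on the shared flow cell. Notch1 was also lost without GLAST/EGF library 3 or Ki67-RFP library 2 or 4 (at most 0.0733), and Jag1 without any library other than GLAST/EGF library 1 (at most 0.166).

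In the BMP and Id list 5 of 13 were higher in GLAST/EGF and 3 in Ki67-RFP (median log2 fold 0.36), and 3 and 1 of 14 on the shared flow cell. On that flow cell 8115 genes were tested, and the counts over all of them are given above. Id genes block proneural factors and answer to BMP. Id3 stood at 160, 130, 96.2 and 225 CPM against 2.09, 6.20, 1.89 and 11.02 CPM, Id2 at 292 ± 64.8 against 72.3 ± 17.5 CPM and Id4 at 215 ± 57.5 against 131 ± 35.2 CPM. Id4 did not pass on the shared flow cell (adjusted p = 0.154). The BMP receptor genes Bmpr1b (3.63 ± 0.69) and Bmpr1a (0.64 ± 0.20) were higher in GLAST/EGF. Bmpr1a lost its call without Ki67-RFP library 2 (adjusted p = 0.0588) and on the shared flow cell (adjusted p = 0.102). Acvr1 (-1.23 ± 0.29), Acvr2b (-0.66 ± 0.24) and the transducer gene Smad1 (-1.14 ± 0.32) were higher in Ki67-RFP, Acvr1 not on the shared flow cell (adjusted p = 0.105). Bmpr2 (0.20 ± 0.15) and Smad4 (-0.26 ± 0.17) did not pass.

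In the Wnt list 11 of 23 were higher in GLAST/EGF and 3 in Ki67-RFP (median log2 fold 0.62). Dkk3, a secreted relative of Wnt inhibitors (2.21 ± 0.21), Tcf7l2, a nuclear effector (1.69 ± 0.29), the receptor gene Fzd2 (1.06 ± 0.17) and Apc, of the complex that degrades beta-catenin (0.62 ± 0.13), were higher in GLAST/EGF. Ctnnb1, the gene of beta-catenin (-0.80 ± 0.10), Tcf4 (-0.36 ± 0.08) and the kinase gene Gsk3b (-0.41 ± 0.13) were higher in Ki67-RFP. Tcf4 was counted in the list although it encodes a helix-loop-helix factor and not the Wnt effector, which is Tcf7l2. Gsk3b did not pass without GLAST/EGF library 4 (adjusted p = 0.0511).

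Cytosolic ribosomal protein genes were higher in Ki67-RFP in 68 of 73 tested and in GLAST/EGF in 0, with a median log2 fold of -0.64. Rpl41 stood at 2185, 1904, 1696 and 1481 CPM in GLAST/EGF and at 2837, 2783, 2603 and 2706 CPM in Ki67-RFP. Rpl13 (-0.50 ± 0.09) and Rpl4 (-0.54 ± 0.09) were alike, although reads of ribosomal pseudogenes can be split among copies. The median cell gave 4.17% ± 0.87 of its transcripts to the list in GLAST/EGF and 8.49% ± 0.48 in Ki67-RFP (exact permutation p = 0.0286, adjusted p = 0.0403 over 24 lists and ranges).

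Immediate early genes, which answer within minutes to growth factors and to tissue handling, moved in both directions. Of 14 tested, 2 were higher in GLAST/EGF, Fos (591 ± 108 against 345 ± 101.8 CPM) and Cyr61 (45.3 ± 19.4 against 2.41 ± 2.84 CPM), and 5 in Ki67-RFP, among them Jund (-0.58 ± 0.16) and Dusp1 (-1.16 ± 0.22). With cells weighted equally Fos did not pass (0.20, adjusted p = 0.349), and Jund did not on the shared flow cell (adjusted p = 0.284). Jun (0.35 ± 0.15, adjusted p = 0.0669) and Egr1 (0.28 ± 0.17, adjusted p = 0.199) did not pass. Both passed without Ki67-RFP library 4 or without GLAST/EGF library 4, with 4 members then higher in GLAST/EGF. On the shared flow cell Egr1 (adjusted p = 0.0189) and Jun (adjusted p = 0.0304) passed, and of 19 members tested 5 were higher in GLAST/EGF and 2 in Ki67-RFP, so that the balance of the counts turned. By the median cell the list took less of the transcripts in GLAST/EGF, 0.110% ± 0.020 against 0.191% ± 0.016 (exact permutation p = 0.0286, adjusted p = 0.0403). Egr1 stood at 840 CPM in Ki67-RFP library 4 and at 498 to 508 CPM in the other Ki67-RFP libraries. Dissociation time was not given, and its part was not tested.

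Markers of other cell types moved with the sorts. Summed microglial markers (15 genes) ran from 20.1 to 699 CPM in GLAST/EGF, where Cd74 was at 0, and from 591 to 1060 CPM in Ki67-RFP, with none at 0. Of 10 tested, 9 were higher in Ki67-RFP, among them Ctss (-3.75 ± 0.84), C1qc (-3.66 ± 0.92) and C1qb (-3.31 ± 0.85). C1qb and C1qc did not pass on the shared flow cell (adjusted p = 0.0560 and 0.0620), where 4 of 12 members were higher in Ki67-RFP. Cells with over 1% of their transcripts from the list numbered 9 in Ki67-RFP and 2 in GLAST/EGF. Without cells that gave over 2% of their transcripts to a list of another cell type, no member held enough transcripts to be tested.

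Oligodendrocyte markers (13 genes in the tables) ran from 190 to 2926 CPM in GLAST/EGF and from 84.7 to 142 CPM in Ki67-RFP, with none at 0 in either. Mbp (2.73 ± 0.79), Cnp (3.13 ± 0.62), Car2 (4.32 ± 0.69) and Trf (2.62 ± 0.82), all 4 members tested, were higher in GLAST/EGF. Mbp and Trf lost their calls on the shared flow cell (adjusted p = 0.0639 and 0.0922), and Trf also without Ki67-RFP library 1, 2 or 4 (adjusted p = 0.0535, 0.0550 and 0.0505). Without cells rich in markers of other types the fold of Mbp was 0.16 (adjusted p = 0.761), and 2 members passed. Without GLAST/EGF library 1, where no cell had over 1% of these markers, 11 of 11 tested members passed. A gene entered that fit with enough transcripts in 3 libraries, which GLAST/EGF alone could supply, so this count depends on the filter. Cells with over 1% of these markers numbered 10 of 216 in GLAST/EGF, with 0, 3, 3 and 4 in libraries 1 to 4, and 0 of 315 in Ki67-RFP. The part of these cells in the difference in Olig1 and Olig2 was not tested.

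Of 4 mature neuron markers 3 were higher in Ki67-RFP, Meg3 (-0.81 ± 0.29), Slc32a1 (-1.73 ± 0.33) and Snap25 (-1.66 ± 0.39), and Rbfox3 did not pass (0.00 ± 0.54). Snap25 (adjusted p = 0.0527) and Meg3 (adjusted p = 0.136) did not pass on the shared flow cell, and Meg3 lost its call without GLAST/EGF library 1 or 3 or Ki67-RFP library 1 or 4 (at most 0.145). Of the 10 interferon and MHC class I genes tested, 3 were higher in GLAST/EGF, among them Ifi27 (1.78 ± 0.25) and H2-K1 (1.2 ± 0.36), and 0 in Ki67-RFP. Over all genes 36.5% passed in either direction and 18.1% were higher in GLAST/EGF, so this count lies near those shares. H2-K1 was lost without Ki67-RFP library 2 or 3 (adjusted p = 0.0744 and 0.0540), and B2m (0.04 ± 0.25) and H2-D1 (0.05 ± 0.27) did not pass. Without cells rich in markers of other types B2m was higher in GLAST/EGF (1.41, adjusted p = 0.000500), and without GLAST/EGF library 3 or on the shared flow cell the list held 6 members higher there. Endothelial markers ran from 145 to 1225 CPM and from 148 to 199 CPM, with Bsg, the only member tested, not passing (0.40 ± 0.19) except without GLAST/EGF library 1 (0.56, adjusted p = 0.0159). Pericyte markers summed to at most 98.2 CPM, with Pdgfrb higher in GLAST/EGF (3.62 ± 0.61) and Cald1 higher in Ki67-RFP (-1.06 ± 0.28), the latter not on the shared flow cell (adjusted p = 0.123). No gene of the oligodendrocyte precursor, ependymal and choroid plexus lists held enough transcripts to be tested.

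**Figure D3:**
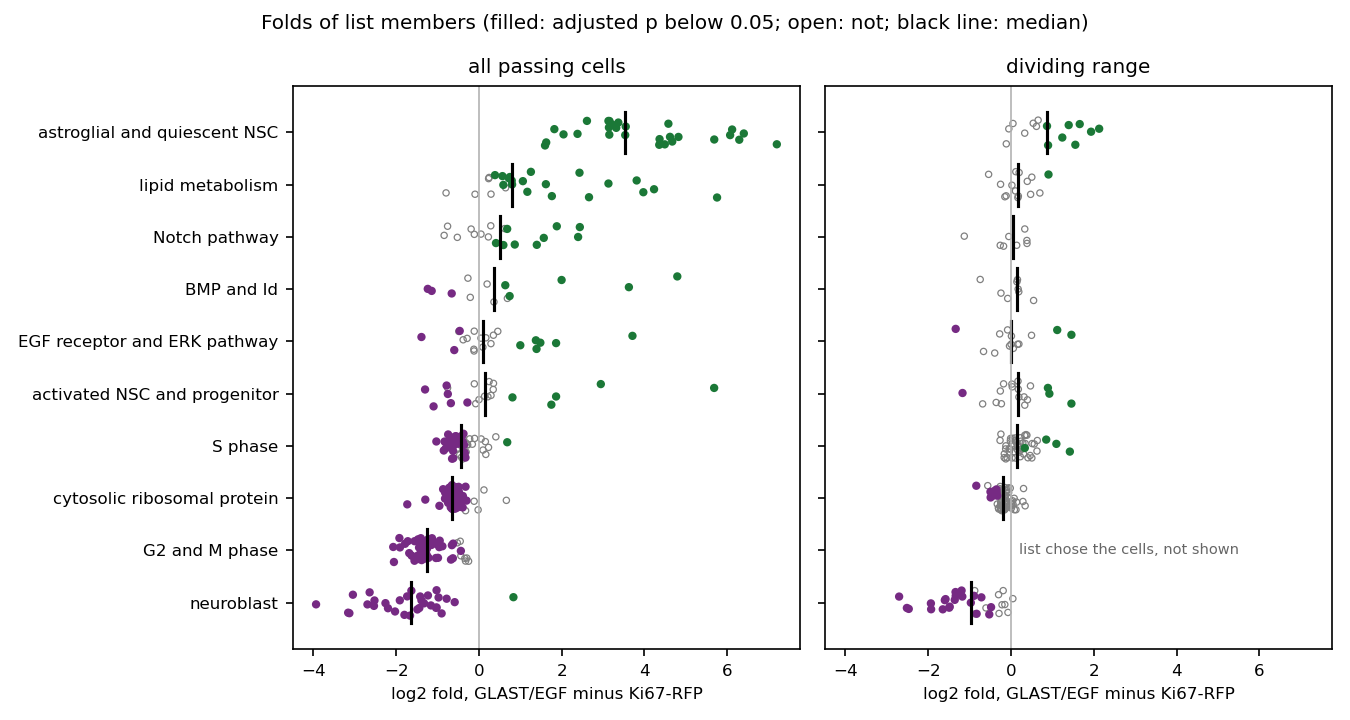
Log2 fold (GLAST/EGF minus Ki67-RFP) of each tested member of 10 gene lists, in sums over all passing cells (left) and over cells in the dividing range (right); filled points passed at an adjusted p below 0.05, open points did not, and black lines are list medians. The astroglial list lies right of 0 (median 3.54) and the neuroblast list left of it (median -1.63) in all cells, and in the dividing range the medians are 0.87 and -0.97, with the S phase median moving from -0.42 to 0.16.

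Cells rich in G2 and M transcripts were next compared between the sorts. A cell was placed in the dividing range when at least 0.5% of its transcripts came from the G2 and M list. The range is a cut on a score and neither a cell type nor 1 stage of the cycle. Near the cut lay 10 GLAST/EGF and 25 Ki67-RFP cells. It held 40 of 216 GLAST/EGF cells, with 20%, 17.02%, 23.1% and 14.5% in libraries 1 to 4, and 198 of 315 Ki67-RFP cells, with 65.8%, 72.5%, 52.6% and 60.2%. Means were 18.7% ± 3.70 and 62.8% ± 8.43 (exact permutation p = 0.0286, adjusted p = 0.0403). Ki67-RFP cells outside the range thus numbered 117.

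Dividing cells from the GLAST/EGF sort gave more detected transcripts by library medians, a gap that missed the threshold after adjustment (below). Their median transcripts per cell were 13751, 12720, 13313 and 14692 in libraries 1 to 4, against 6420, 6286, 7403 and 7315 in Ki67-RFP, 1.99 times as many in the mean of libraries. The lowest GLAST/EGF library lay far above the highest Ki67-RFP library. For cells outside the range the medians were 5333 ± 735 and 4855 ± 770 and overlapped (exact permutation p = 0.429, adjusted p = 0.429). The ratio of dividing to remaining cells was 2.59 ± 0.36 in GLAST/EGF and 1.43 ± 0.16 in Ki67-RFP. Spike-in RNA was higher too, at 475 ± 21.2 against 406 ± 1.2 transcripts per dividing cell, and transcripts per spike-in transcript were 29.6 ± 1.91 and 17.8 ± 1.87.

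Each of these gaps had an exact permutation p of 0.0286, the smallest possible, and an adjusted p of 0.0524 over the 11 quantities compared in dividing cells, and so missed the threshold after adjustment with all 4 libraries of each sort apart. Whether the gate on cell size or label brightness differed between the sorts was not tested.

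In dividing cells of both sorts the neuroblast list took more of the transcripts than the astroglial list, but to different degrees. The 2 lists hold unlike genes, so the larger share does not name the cells. The neuroblast list took 1.33% ± 0.09 of the transcripts of the median dividing cell in GLAST/EGF and 2.36% ± 0.16 in Ki67-RFP (exact permutation p = 0.0286, adjusted p = 0.0524). The S phase list took 1.43% ± 0.24 and 0.95% ± 0.13 (exact permutation p = 0.0571, adjusted p = 0.0898), the astroglial list 0.32% ± 0.05 and 0.21% ± 0.06 (p = 0.0857 by the same exact test, adjusted p = 0.105) and the progenitor list 0.91% ± 0.05 and 0.87% ± 0.04 (p = 0.314, adjusted p = 0.346). Dividing cells with more astroglial than neuroblast transcripts were few, 7 of 40 in GLAST/EGF and 8 of 198 in Ki67-RFP. Over all cells that order held in 72.7% ± 6.49 and 8.24% ± 1.15.

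**Figure D4:**
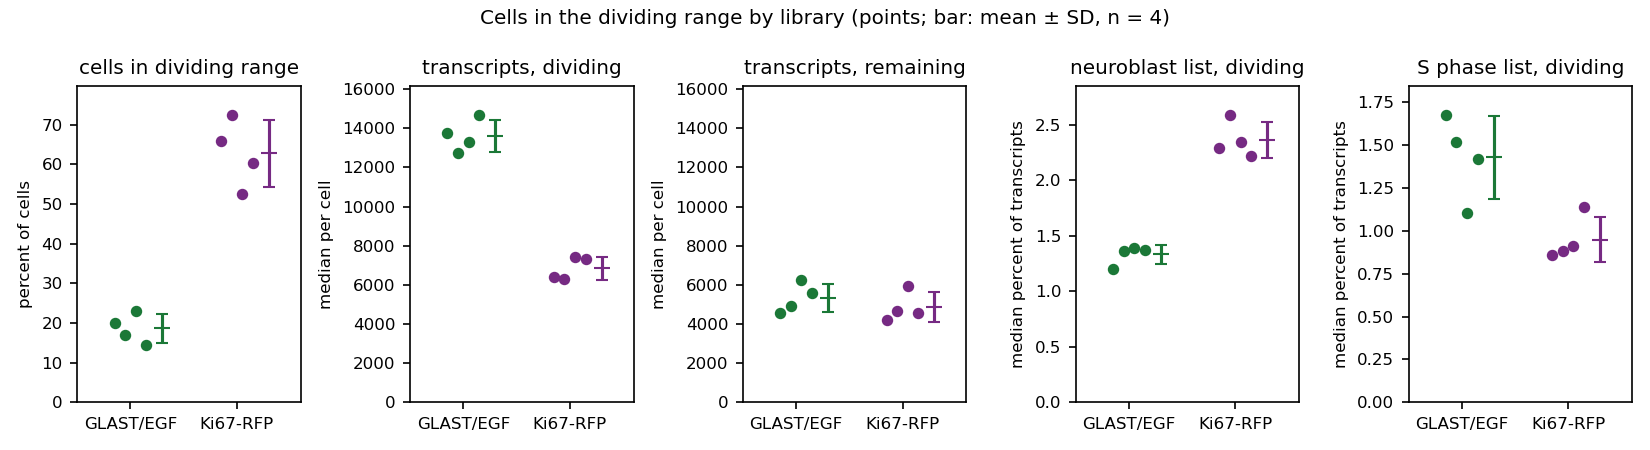
Cells in the dividing range by library: their percent of all cells, their median transcripts per cell beside that of the remaining cells, and the percent of their transcripts from the neuroblast and S phase lists; points are libraries and bars the mean with its SD. GLAST/EGF has fewer such cells (14.5% to 23.1% against 52.6% to 72.5%). Its library medians of transcripts per cell are higher (12720 to 14692 against 6286 to 7403), while those of the remaining cells overlap.

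In sums over dividing cells 4594 genes were tested. Of these, 250 (5.44%) were higher in GLAST/EGF and 167 (3.64%) in Ki67-RFP, 9.08% in all, with a median log2 fold of 0.00, and libraries did not overlap in 14.3% (7.03% with an adjusted p below 0.05). Equal numbers of dividing cells per library gave 61 and 111 genes of 2195, with more genes then higher in Ki67-RFP than in GLAST/EGF. The G2 and M list chose these cells, so its members are given as levels and signs without a test.

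Egfr stayed higher in dividing GLAST/EGF cells, at 303, 212, 328 and 164 CPM against 74.1, 98.0, 84.98 and 106 CPM (log2 fold 1.46 ± 0.22, adjusted p = 8.38e-05). Slc1a3 did not pass (0.61 ± 0.23, adjusted p = 0.0865), at 258, 105, 288 and 280 CPM against 155, 136, 133 and 181 CPM. It passed without GLAST/EGF library 2 (0.87, adjusted p = 0.00379). In the progenitor list 3 of 18 tested members were higher in GLAST/EGF (among them Egfr and Miat) and 1 in Ki67-RFP, Vim (-1.17 ± 0.23). Miat did not pass on the shared flow cell (adjusted p = 0.0895) or with equal numbers of dividing cells (adjusted p = 0.0547). Ccnd2, which differed over all cells, stood at 4994 ± 524 and 4854 ± 157 CPM in dividing cells.

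Of the neuroblast list 21 of 31 were higher in dividing Ki67-RFP cells and 0 in GLAST/EGF (median log2 fold -0.97). Stmn2 stood at 80.9, 21.1, 243 and 255.98 CPM against 625, 1027, 593 and 673 CPM (-2.52 ± 0.37), and Stmn1 at 3552, 3568, 3049 and 3195 CPM against 5028, 5979, 5628 and 5223 CPM (-0.72 ± 0.08). Cd24a, the surface antigen gene of neuroblasts (-1.18 ± 0.15), and Tubb3, a neuronal tubulin (-1.34 ± 0.17), were also higher in Ki67-RFP. Sorted by size, Stmn2, Dlx1as (-2.47 ± 0.44), Tuba1c (-2.43 ± 0.54), Gng3 (-2.14 ± 0.49), Bcl11b (-1.95 ± 0.45), Dlx5 (-1.93 ± 0.43), Csrp2 (-1.67 ± 0.45) and Tubb2a (-1.67 ± 0.33) led this direction. Without GLAST/EGF library 1 the calls of Tuba1c, Bcl11b, Dlx5 and Csrp2 were lost (adjusted p = 0.0577, 0.0671, 0.0591 and 0.0589), and the fold of Dlx1as was -1.60. Bcl11b was lost without GLAST/EGF library 4 as well (adjusted p = 0.0749), where Tuba1c was at -1.44, and Csrp2 without any library other than Ki67-RFP library 2 or 4 (at most 0.189). On the shared flow cell the calls of Dlx5, Gng3, Bcl11b and Csrp2 were lost (adjusted p = 0.122, 0.104, 0.161 and 0.375).

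Few S phase genes passed in dividing cells. Of 46 tested, 4 were higher in dividing GLAST/EGF cells (Pcna, Mcm3, Gins2 and Hells) and 0 in Ki67-RFP, with a median log2 fold of 0.16, beside 5.44% of all genes higher in GLAST/EGF. Hells stood at 279, 298, 234 and 246 CPM against 111, 63.5, 112 and 116 CPM (1.42 ± 0.21), and it passed in every leave-one-out fit. Mcm3, of the replicative helicase, stood at 255.7 ± 28.4 against 147 ± 29.9 CPM (0.85 ± 0.19). Mcm3 lost its call with the range cut at 1% (adjusted p = 0.269) and with equal numbers of dividing cells (adjusted p = 0.193). Pcna (0.33 ± 0.10, adjusted p = 0.0315) was lost without any library other than GLAST/EGF library 3 or Ki67-RFP library 4 (at most 0.174), and Gins2 (1.096 ± 0.35, adjusted p = 0.0460) without any other than GLAST/EGF library 2 or Ki67-RFP library 2 (at most 0.121) and on the shared flow cell (adjusted p = 0.307). Without GLAST/EGF library 1 or 4 or Ki67-RFP library 1 or 3, 2 of the list passed. With the range cut at 1%, 1 did, as with equal numbers of dividing cells.

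Among the genes that chose the cells, Mki67 stood at 1729, 1720, 1233 and 1493 CPM in GLAST/EGF and at 830, 865, 947 and 1039 CPM in Ki67-RFP. Ccnb1 stood at 259, 277, 196 and 65.2 CPM against 310, 333, 417 and 315 CPM. Mki67 was thus above and Ccnb1 below Ki67-RFP in every GLAST/EGF library, but both helped to choose the cells, so this is no test. By the sign of the fold, 16 of 56 list members with enough transcripts were higher in GLAST/EGF and 40 in Ki67-RFP. The list chose the cells, so this split is no test either.

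Of the 15 astroglial genes with enough transcripts 8 were higher in dividing GLAST/EGF cells, with 0 in Ki67-RFP (median log2 fold 0.87). Slc1a2 stood at 639, 375, 551 and 889 CPM against 177, 213, 153 and 276 CPM (1.55 ± 0.20), and every GLAST/EGF library lay above every Ki67-RFP library. Apoe (0.90 ± 0.18) and Aldoc (2.13 ± 0.58) passed as well. Thinned to 1000 transcripts per cell, Apoe did not pass (0.225, adjusted p = 0.804). Aldoc lost its call without GLAST/EGF library 4 (adjusted p = 0.0592) and on the shared flow cell (adjusted p = 0.266), and without GLAST/EGF library 4 or Ki67-RFP library 1 or 3 5 members passed. On the shared flow cell 3 did.

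Immediate early genes were higher in dividing GLAST/EGF cells in 3 of 9, Egr1, Jun and Fos, and in Ki67-RFP in 0 (median log2 fold -0.13). Egr1, the early growth response factor, stood at 892, 1203, 1111 and 987 CPM against 499, 445, 350 and 924 CPM (0.98 ± 0.19). Fos stood at 507, 502, 599 and 937 CPM against 295, 375, 119 and 345 CPM (1.203 ± 0.24), and Jun at 746 ± 68.7 against 477 ± 97.4 CPM. Ki67-RFP library 4 again held the highest Egr1 of its sort.

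Of 14 EGF receptor and ERK genes tested in dividing cells, Egfr and Spred1 (1.12 ± 0.25) were higher in GLAST/EGF and Etv1 (-1.34 ± 0.29) in Ki67-RFP. Spred1 did not pass on the shared flow cell (adjusted p = 0.123) or with equal numbers of dividing cells (adjusted p = 0.156). In the Notch list 0 of 8 and in the BMP and Id list 0 of 8 passed in either direction. Their medians were 0.04 and 0.15. In the Wnt list 1 of 12 passed, Ctnnb1 (-0.54 ± 0.11), higher in Ki67-RFP, though not on the shared flow cell (adjusted p = 0.0504). Over all genes 9.08% passed, so counts of 0 or 1 in lists this short lie near that share. Hes5 (-1.13 ± 0.70) and Id2 (0.16 ± 0.32) did not pass in dividing cells. Of 71 ribosomal protein genes 8 were higher in Ki67-RFP and 0 in GLAST/EGF (median log2 fold -0.19), 4 without GLAST/EGF library 1 or 4, 5 without Ki67-RFP library 1, and 4 on the shared flow cell. Whether the differences over all cells and over dividing cells themselves differ was not tested, since they share cells.

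Among genes with at least 100 CPM in the higher sort and libraries that did not overlap, large differences toward GLAST/EGF in dividing cells included Trip11 (1.88 ± 0.39) of the Golgi, Pdlim5 (1.82 ± 0.31) and Lima1 (1.82 ± 0.22), which bind actin, Tcf20 (1.80 ± 0.27), a transcriptional coregulator, Cep290 (1.72 ± 0.38) of the ciliary base, Supt16 (1.57 ± 0.24), of the histone chaperone FACT, and Ankrd11 (1.56 ± 0.21), a chromatin regulator. Lima1 stood at 333, 222, 447 and 345 CPM against 71.2, 87.3, 91.8 and 139 CPM. The other 6 also separated the libraries, which their selection required. With equal numbers of dividing cells Supt16 did not pass (adjusted p = 0.0848). Microglial markers were at 0 to 40.6 CPM in dividing GLAST/EGF cells, with 11 of 15 at 0, and at 64.4 to 291 CPM in dividing Ki67-RFP cells. Oligodendrocyte markers stood at 94.9 to 179 and 74.6 to 115 CPM, and their part in these differences was not tested.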

How the data were processed

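Each of 8 libraries gave a deposited table of genes by well. BWA (0.6.2-r126) and mm10 are named in the submitters' processing notes. The values are the authors' estimates of transcript molecules (unit recorded as other): 4800995 of 4801006 values above 0 equalled the collision correction of a whole number of 256 random barcodes within 1e-06. Library sums over passing cells, with TMM scaling, were tested with limma voom 3.58.1 in R 4.3.3. A gene entered with 15 transcripts or more in all and, in at least 4 libraries, the equivalent of 10 at median library size. Where libraries were left out, the number of libraries asked for fell to that of the smaller sort. A gene passed at a Benjamini-Hochberg adjusted p below 0.05. Values of ± are SE beside log2 folds and SD over 4 libraries beside levels. Intervals and floors cover counting error only. No doublet caller was run on these single-cell wells.

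The members and lists were chosen with earlier results of these data known. Always named were Slc1a3, Egfr and Mki67. Further names are the 12 largest differences each way (8 in dividing cells, without G2 and M genes) among passing genes with at least 100 CPM in the higher sort and libraries that did not overlap, and the 4 most abundant members of each list. Members whose role is described were added. Some genes that this rule takes in are not reported here. Positions are from GENCODE M21. The planned edgeR and DESeq2 alternatives were not run, since a format check could not read the tables as counts. On simulated sums of 7465 genes, 45.8% of log2 changes of 1 and 98.8% of changes of 2 were recovered.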

Additional observations from a re-analysis of the deposited data

Results flagged for a closer look

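Chance marks about 1 in 20 groups of 4 libraries as holding a library far from the rest, and 23 of 376 groups examined were marked. The number given for each is the gap of that library to its nearest neighbour as a share of the group's range.

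Aqp4 stood at 14.7 CPM in Ki67-RFP library 4 against 0 CPM in the other libraries of the sort (1). Gjb6 stood at 66.5 CPM in GLAST/EGF library 2 against 120 to 130 CPM in the other libraries of the sort (0.845). Gjb6 stood at 1.89 CPM in Ki67-RFP library 3 against 0 CPM in the other libraries of the sort (1). Crym stood at 10.3 CPM in Ki67-RFP library 2 against 0 CPM in the other libraries of the sort (1). Hspa1a stood at 12.5 CPM in Ki67-RFP library 2 against 0 to 1.83 CPM in the other libraries of the sort (0.853). Dlx5 stood at 22.3 CPM in GLAST/EGF library 3 against 11.1 to 12.9 CPM in the other libraries of the sort (0.843). Sp9 stood at 56 CPM in GLAST/EGF library 3 against 44.9 to 46.4 CPM in the other libraries of the sort (0.862). Sox2 stood at 703 CPM in Ki67-RFP library 2 against 645 to 652 CPM in the other libraries of the sort (0.869). Cd24a stood at 478 CPM in GLAST/EGF library 3 against 297 to 325 CPM in the other libraries of the sort (0.847). Dclk1 stood at 808 CPM in GLAST/EGF library 4 against 709 to 718 CPM in the other libraries of the sort (0.91). Hells stood at 66.2 CPM in Ki67-RFP library 2 against 104 to 107 CPM in the other libraries of the sort (0.936). Lrig1 stood at 9.44 CPM in Ki67-RFP library 3 against 1.83 to 2.09 CPM in the other libraries of the sort (0.967). Rbpj stood at 121 CPM in Ki67-RFP library 1 against 151 to 152 CPM in the other libraries of the sort (0.972). Gsk3b stood at 334 CPM in Ki67-RFP library 2 against 363 to 369 CPM in the other libraries of the sort (0.835). Egr1 stood at 840 CPM in Ki67-RFP library 4 against 498 to 508 CPM in the other libraries of the sort (0.969). Rpl4 stood at 1323 CPM in GLAST/EGF library 4 against 1693 to 1706 CPM in the other libraries of the sort (0.967).

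Slc1a3 in dividing cells stood at 105 CPM in GLAST/EGF library 2 against 258 to 288 CPM in the other libraries of the sort (0.835). Hells in dividing cells stood at 63.5 CPM in Ki67-RFP library 2 against 111 to 116 CPM in the other libraries of the sort (0.911). Spred1 in dividing cells stood at 84.5 CPM in GLAST/EGF library 2 against 139 to 142 CPM in the other libraries of the sort (0.937). Ankrd11 in dividing cells stood at 201 CPM in GLAST/EGF library 3 against 383 to 398 CPM in the other libraries of the sort (0.924). The immediate early list took 0.14% of transcripts of the median cell in GLAST/EGF library 3 against 0.0972 to 0.102% in the other libraries of the sort (0.898). The cholesterol synthesis list took 0.184% of transcripts of the median cell in GLAST/EGF library 3 against 0.154 to 0.159% in the other libraries of the sort (0.851). The interferon and MHC class I list took 0.0267% of transcripts of the median cell in Ki67-RFP library 1 against 0.0243 to 0.0247% in the other libraries of the sort (0.832).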

How the results depend on the processing

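The dividing range rests on 8 to 12 GLAST/EGF cells per library. Leaving out 1 library at a time gave 1252 to 1421 genes higher in GLAST/EGF and 1124 to 1353 higher in Ki67-RFP over all cells, and 174 to 266 and 118 to 178 in the dividing range. In the fits on the shared flow cell, genes higher in Ki67-RFP fell to 795 over all cells and 82 in the dividing range. With no filter on low values 2186 genes were higher in GLAST/EGF. Thinned to 1000 transcripts per cell, 296 and 321 genes of 1359 tested passed over all cells and 11 and 17 of 388 in the dividing range, where fewer genes could be tested. Of the named genes tested there in dividing cells, 6 lost their calls (Apoe, Vim, Cd24a, Pcna, Ctnnb1 and Jun) and 5 did not change. Alternatives added after seeing the data gave, for dividing cells, 61 and 111 genes with equal cell numbers and 255 higher in Ki67-RFP when cells were chosen by Mki67 and Top2a transcripts; the planned range from 0.25% gave 390 and 324. Library totals, median-of-ratios size factors, limma trend, minimum depths of 500 and 2000 transcripts, equal weights and removal of cells rich in markers of other types kept both counts over all cells within 1.5 times. The planned edgeR and DESeq2 alternatives were not run.

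The library numbers did not pair the samples (correlations of same-numbered deviations from -0.0537 to 0.0287). With the library number as a replicate block 1361 and 1331 genes passed over all cells and 248 and 134 in the dividing range. The block brought Mki67, Miat, Smc4, Jun and Bsg past the threshold (adjusted p from 0.0262 to 0.0374), and ended the calls of C1qb over all cells (adjusted p = 0.0595) and of Etv1 and Gins2 in dividing cells (0.0569 and 0.0730).

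The dividing share differed by -47.5 to -40.9 percentage points without 1 library. The gap in median transcripts of dividing cells was 6405 to 7063 and passed without GLAST/EGF library 3 (6865, adjusted p = 0.0449), and the gap in S phase share was 0.398 to 0.588 and passed without the same library (0.588, adjusted p = 0.0449). Adjusted p of the thinned shares of cells rose to 0.0531 or more without most single libraries, where the smallest p before adjustment is again 0.0286.

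Signs that turned were almost all of values that had not passed. With cells weighted equally these were Miat (-0.089), Egr1 (-0.22), Jun (-0.094), Fdft1 (0.33), B2m (-0.48) and H2-D1 (-0.24). Thinned to 1000 transcripts, they were Miat (-0.041), Fdft1 (0.51), Fabp5 (0.036), and Sox2 (0.23) and Gapdh (0.0035), which had passed. Rbfox3 was -0.43 on the shared flow cell, -0.0071 with a minimum of 500 transcripts and -0.0056 with no filter. Without 1 library at a time B2m ran from -0.20 to 0.23, H2-D1 from -0.25 to 0.28 and Rbfox3 from -0.44 to 0.56. The difference in the share of cells with Egfr and Mki67 was -0.48 percentage points at 2000 transcripts per cell and ran from -0.0087 to 1.5 without 1 library, and that with Egfr and Dlx2 was -0.37 and ran from -0.27 to 2.57. The median-cell share of the Wnt list differed by -0.019 to 0.0044. The cause of these changes was not tested.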
